A study of Homo sapiens with 3 samples.

Results

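The goblet cell secretory genes described here are 10 genes, SPINK4, TFF1, TFF2, TFF3, MUC2, AGR2, FCGBP, REG4, CLCA1 and SPDEF, out of 21610 genes with a named probe on the array. They were chosen by name from known markers of goblet cells, with their measured differences between the substrates already known, so the differences below are a description and support nothing by themselves. HT29 cells, an established human colon adenocarcinoma line, were grown on tissue culture polystyrene plates (TCP), on chitosan membranes (CS) or on chitosan membranes grafted with hyaluronan, HA (CSHA), with no other agent named for the array cultures. Total RNA of each substrate was labelled with Cy3 and hybridized to 1 array, so the differences between substrates cannot be checked against replicates or tested. All groups share the same cell line, and the labels give no time of harvest for the arrays. RNA was taken from whole cultures, so more cells of a type and more RNA per cell cannot be told apart.

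Goblet cells are the mucus-producing cells of the intestinal epithelium. They pack the gel-forming mucin MUC2 into granules together with small stabilizing peptides and binding proteins, and they release the granules onto the gut surface, where the contents swell into the mucus layer. The transcription factor SPDEF, acting below ATOH1, drives the last steps of goblet cell maturation. HT29 is widely used as a model of intestinal differentiation, since its cells can take on goblet-like or absorptive features under different culture conditions.

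The 10 genes had 16 probes on the array, each printed as 1 spot. Of these probes, 12 were well above background on all 3 arrays, 1 on both membranes but not on TCP, and 3 on no array. By its brightest probe, each of 9 genes was well above background on every array, and CLCA1 was on none. Signals below are the scanner's processed signal, corrected for background, in arbitrary intensity units. Differences are on the log2 scale, after each array was shifted by the 75th percentile of its probes, which read 354 for TCP, 423 for CS and 337 for CSHA. The error in brackets after a log2 difference is the error that the scanner software gives for the spots compared. It covers the spot and not the difference between cultures.

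Compared to TCP, 3 of the 9 measured genes, SPINK4, TFF3 and FCGBP, reached a 2-fold higher level on CS. The same 3 genes did so on CSHA, and also on CSHA when compared with CS. On CS against TCP, 1.36% of all genes compared passed this size upwards and 1.94% downwards. For CSHA against TCP the shares were 3.02% and 3.99%, and for CSHA against CS they were 2.27% and 2.15%. None of the 9 genes was 2-fold lower in any of these comparisons. The comparisons share arrays, and the genes were chosen with these differences known, so nothing is read from the counts. AGR2 was higher on both membranes by less than 2-fold, REG4 and MUC2 depended on the probe, and SPDEF, TFF1 and TFF2 were lower on both membranes by less than 2-fold.

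The stretch of 250 bases before the transcription start is shown for 3 of these genes. SPINK4 and FCGBP were at least 2-fold higher on both membranes, and SPDEF, the regulator of the group, was lower on both. The sequences are those of RefSeq on the GRCh38.p14 assembly, written 5′ to 3′ on the strand of the gene. Capitals mark TATAAA, the core of a TATA box, and CANNTG, the E box core that factors such as ATOH1 recognize, on either strand.
SPINK4, chr9:33239917-33240166, plus strand: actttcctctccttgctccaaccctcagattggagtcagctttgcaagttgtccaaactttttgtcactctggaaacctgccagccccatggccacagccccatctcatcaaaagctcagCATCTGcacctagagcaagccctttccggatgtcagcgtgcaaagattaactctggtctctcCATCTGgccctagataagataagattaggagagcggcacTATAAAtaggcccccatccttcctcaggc
FCGBP, chr19:39934635-39934884, minus strand: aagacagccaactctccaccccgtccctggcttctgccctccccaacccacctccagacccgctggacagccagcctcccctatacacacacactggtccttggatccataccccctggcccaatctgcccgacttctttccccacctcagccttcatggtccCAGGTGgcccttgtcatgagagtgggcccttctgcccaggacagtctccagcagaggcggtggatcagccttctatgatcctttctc
SPDEF, chr6:34556330-34556579, minus strand: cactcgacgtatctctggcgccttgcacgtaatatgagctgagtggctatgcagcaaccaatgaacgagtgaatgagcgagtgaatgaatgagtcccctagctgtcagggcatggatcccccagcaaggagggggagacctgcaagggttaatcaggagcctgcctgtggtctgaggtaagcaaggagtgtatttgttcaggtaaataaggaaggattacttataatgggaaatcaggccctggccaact
In SPINK4 the TATAAA starts 29 bases before the transcription start, and E box cores start at 130 and at 68 bases before it. FCGBP has 1 E box core in this window, at 87 bases, and no TATAAA. Neither motif is in the SPDEF window. A window was at hand for 7 of the genes, SPINK4, MUC2, AGR2, FCGBP, REG4, CLCA1 and SPDEF. TATAAA was in 2 of these 7 windows, those of SPINK4 and REG4, and in 11.1% of the 27305 windows of all genes. CANNTG was in 5 of the 7 windows and in 62.2% of all.

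Other letters were searched on both strands, and matches of different motifs may share bases. TTTATG, a core bound by CDX factors, was in 3 of the 7 windows, those of MUC2, AGR2 and REG4, and in 2736 of the 27305 windows. CACCC, a core of KLF factors, was in 4 of the 7 and in 53.7% of all. Of the cores bound by forkhead factors, TGTTTGC was in 1 window, that of REG4, and in 3.19% of all windows. The other forkhead core, TGTTTAC, was in none of the 7 and in 2.98% of all. TGACGT, the core of cyclic AMP response elements, was also in none of the 7 and in 7.42% of all. With 7 windows, these counts describe the letters before these genes and nothing else.

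SPINK4, a Kazal-type serine protease inhibitor made by goblet cells, had a processed signal of 70.3 on TCP, 981 on CS and 2407 on CSHA. It was therefore low on polystyrene, well above it on chitosan, and highest on the HA-grafted membrane. The log2 difference was 3.55 (0.23) for CS against TCP, 5.17 (0.23) for CSHA against TCP and 1.62 (0.20) for CSHA against CS, or 11.7-fold, 35.9-fold and 3.07-fold. Among the 13486 genes that stood well above background on every array, it ranked first from the top in both comparisons with TCP and was at rank 21 for CSHA against CS. Before any background was subtracted, the median signal of the spot was 132.5, 1065 and 2560, over a local background of 28, 26 and 23. With the deposited log2 values, which are taken from that median signal without subtraction, SPINK4 had log2 differences of 2.76 on CS and 4.33 on CSHA. Over the 12 ways of processing that were computed, its log2 difference lay between 2.73 and 3.61 on CS and between 4.26 and 5.60 on CSHA. Not all of the 12 are separate checks. SPINK4, FCGBP, AGR2 and SPDEF have 1 probe each, well above background on every array. For these genes the ways that change the filter or the probe repeat the reported value.

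FCGBP, a large protein of the mucus gel that binds IgG and attaches to MUC2, had the same order of signals, 68.0 on TCP, then 243 on CS and 711 on CSHA. The step from CS to CSHA was the larger of its steps. The log2 difference of FCGBP was 1.58 (0.24) for CS and 3.46 (0.24) for CSHA against TCP, and 1.87 (0.21) between the membranes, or 2.995-fold, 10.97-fold and 3.66-fold. It ranked 18 on CS and 4 on CSHA among the measured genes. The rise on CS past 2-fold depended on the background correction. The median spot signal was 121, 281.5 and 723 over a local background of 26, 24 and 22, and the log2 difference on CS was 0.96 with the normexp correction and 0.97 with the deposited values. On CSHA it was at least 2.55 in all 12 ways of processing.

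TFF3, the trefoil peptide secreted with MUC2 by intestinal goblet cells, had 3 probes, all well above background on every array. Its brightest probe read 423 on TCP, 1652 on CS and, highest, 3049 on CSHA. The next probe read 92.5, 346 and 455. The third, which was dim, read 39.0, 70.8 and 60.3. All 3 probes thus read lowest on TCP, and the third was the only one with its highest signal on CS before the arrays were shifted. The log2 differences from TCP were 1.71 on CS and 2.92 on CSHA by the brightest probe, 1.65 and 2.37 by the next, and 0.61 (0.32) and 0.70 (0.33) by the dim one. In fold units, the brightest probe was 3.27-fold higher on CS and 7.56-fold higher on CSHA. CSHA against CS, the probes differed more, with log2 differences of 1.21, 0.72 and 0.09, so that the 2-fold step between the membranes was seen by the brightest probe alone.

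**Figure D1:**
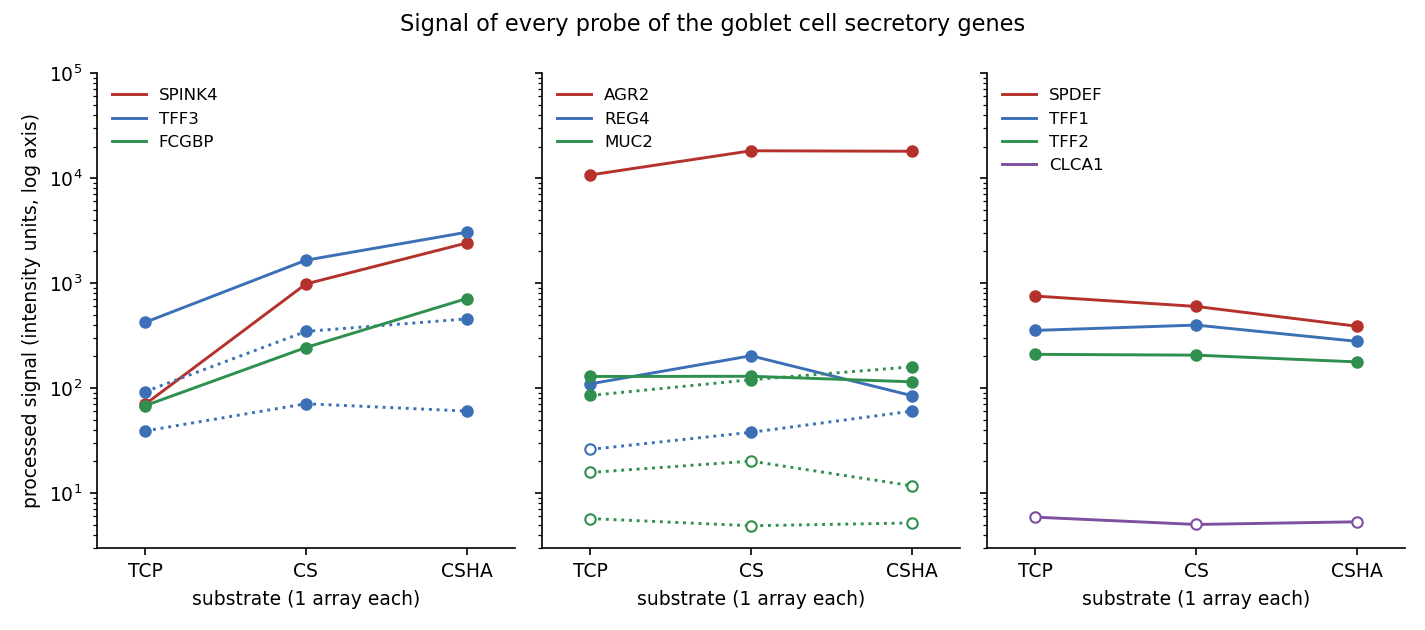
Processed signal (intensity units, log axis) of each of the 16 probes of the 10 genes on the TCP, CS and CSHA arrays, 1 array per substrate. Solid lines join the brightest probe of a gene and dotted lines its further probes, filled points are well above background and open points are not. SPINK4, TFF3 and FCGBP (left panel) read lowest on TCP with every probe, while SPDEF (right panel) went from 752 on TCP to 388 on CSHA.

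The other trefoil peptides did not share the pattern of TFF3. TFF1, which is made mainly by surface cells of the stomach and in many gastrointestinal tumours, read 354 on TCP, 398 on CS and 279 on CSHA. After the shift of the arrays its log2 difference from TCP was -0.09 (0.21) on CS and -0.28 (0.21) on CSHA. TFF2, the trefoil peptide of gastric mucous neck cells and duodenal glands, read 209, 206 and 177, with log2 differences of -0.28 (0.21) and -0.17 (0.21). All of these are near the scanner's error. With the arrays scaled to the spike-in probes instead, both genes were above 0 on CSHA, TFF1 at 0.16 and TFF2 at 0.27. The trefoil genes lie next to each other on chromosome 21, in the order TFF3, TFF2, TFF1, between ABCG1 on the side of TFF3 and TMPRSS3 on the side of TFF1. ABCG1, a cholesterol exporter, read 106 on TCP, 169 on CS and 308 on CSHA, with log2 differences of 0.41 and 1.60. TMPRSS3 was not well above background on any array. Along this stretch, the neighbours TFF3 and ABCG1 had higher signals on CSHA than on TCP. On their TFF1 side, TFF2 and TFF1 stayed near the scanner's error, and TMPRSS3 has no measured difference.

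MUC2, the gel-forming mucin that makes up the scaffold of intestinal mucus, had 4 probes, of which 2 were measured. The brightest read 129 on both TCP and CS and 115 on CSHA, and the next read 84.9, 120 and 159. These probes went opposite ways. The log2 difference from TCP was -0.25 (0.22) on CS and -0.10 (0.22) on CSHA by the brightest and 0.24 (0.23) on CS and 0.98 (0.23) on CSHA by the next. The remaining probes read 15.7, 20.1 and 11.7, and 5.70, 4.87 and 5.18, and neither was well above background on any array. The direction of MUC2 is therefore not settled by these arrays, and no probe of it was 2-fold higher on a membrane.

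AGR2, a protein disulfide isomerase of the endoplasmic reticulum that is needed to fold MUC2, read 10728 on TCP, 18227 on CS and 18037 on CSHA. Both membranes were above TCP and close to each other. The log2 difference was 0.51 (0.20) on CS and 0.82 (0.20) on CSHA, or 1.42-fold and 1.76-fold, and 0.31 (0.20) between the membranes. These values lie at percentiles 95.9 and 96.2 of the measured genes. AGR2 was above TCP in all 12 ways of processing, and past 2-fold on CSHA in 1 of them, at a log2 difference of 1.26 with the spike-in scaling. Its neighbour on chromosome 7 is its paralogue AGR3. AGR3 read 25.4 on TCP, where it was not well above background, 288 on CS and 216 on CSHA, so it was higher by at least 9.52-fold on CS and by at least 8.95-fold on CSHA. The genes on either side of the pair, TSPAN13 and AHR, had log2 differences of -0.25 and 0.19 on CS and of -0.27 and 0.61 on CSHA.

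REG4, a secreted lectin of enteroendocrine and goblet cells, had 2 probes that disagreed on CSHA. The brighter read 110 on TCP, 203 on CS but 84.7 on CSHA. The dimmer read 26.0 on TCP, where it was not well above background, 37.9 on CS and 60.1 on CSHA. Both read higher on CS than on TCP, by 0.63 (0.22) and, as a bound set by the dim TCP signal itself, by 0.29 (0.45). The latter is smaller than its error, so the rise on CS rests on the brighter probe. On CSHA the brighter probe had a log2 difference of -0.30 (0.24) from TCP and the dimmer of 1.28 (0.42), a bound of the same kind. Between the membranes they stood at -0.94 (0.23) and 0.99 (0.32). REG4 thus has no single direction on CSHA.

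SPDEF, the ETS factor that drives goblet cell maturation, read 752 on TCP, 599 on CS and 388 on CSHA. Its order over the substrates was the reverse of that of SPINK4, TFF3 and FCGBP. The log2 difference from TCP was -0.58 (0.20) on CS and -0.88 (0.21) on CSHA, or 0.667 and 0.542 of the TCP level. Counted from the lowest, it ranked 396 on CS and 608 on CSHA among the 13486 measured genes. It was below TCP on both membranes in all 12 ways of processing. The log2 difference between the membranes, -0.30 (0.21), turned to 0.08 with the spike-in scaling. CLCA1, a secreted metalloprotease of goblet cell mucus, read 5.88, 5.01 and 5.31 and was not well above background on any array, so it has no measured difference.

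**Figure D2:**
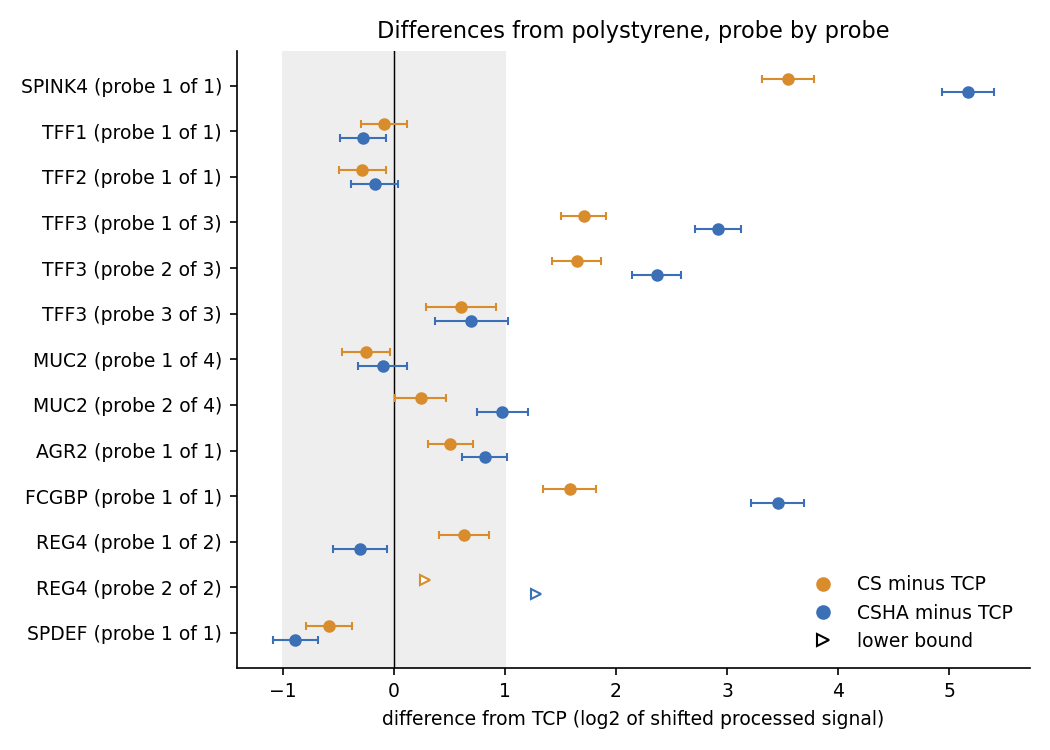
Log2 difference from TCP for each of the 13 probes well above background on some array, CS in orange and CSHA in blue. Bars are the error the scanner software gives for the spots, triangles are lower bounds for the REG4 probe that TCP did not show well above background, and the grey band spans less than 2-fold. The probes of TFF3 lie on the same side of 0, those of MUC2 and REG4 on CSHA do not.

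The members thus ran from a log2 difference of -0.88 to 5.17 on CSHA. Their median was 0.51 on CS, -0.10 on CSHA and 0.15 between the membranes, beside 0.04, 0.12 and 0.07 for all genes. On CS 5 of the 9 were above TCP and 4 below, on CSHA 4 were above and 5 below, and 6 were higher on CSHA than on CS. Of all genes, 56.7% were above TCP on CS, 61.6% were above TCP on CSHA, and 58.5% were higher on CSHA than on CS.

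**Figure D3:**
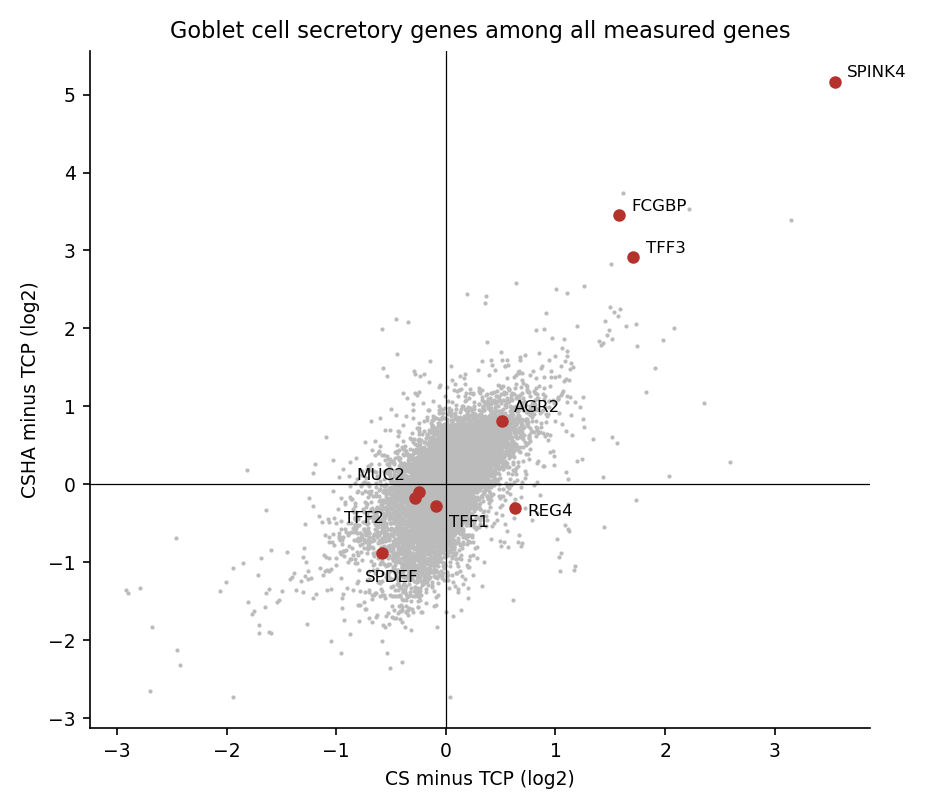
Log2 difference of CS from TCP (horizontal axis) against that of CSHA from TCP (vertical axis) for the 13486 genes that stood well above background on every array (grey), with the 9 measured members in red. Both axes use the same TCP array. SPINK4 lies farthest out on both axes, FCGBP and TFF3 at the edge, and the other members within the cloud.

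How near the spots of 1 probe lie to each other can be read from the probes printed 10 times on each array. Where such a probe was well above background, the median SD among its spots was 0.05 on both TCP and CS and 0.06 on CSHA, on the log2 scale. For those with a median signal under 250, where SPINK4 and FCGBP lay on TCP, it was 0.12 on each array. In this range, with outlier-flagged spots left out as for the members, 1 of 1222 spots on TCP, 0 of 1173 on CS and 0 of 1301 on CSHA lay at least 2-fold from the median of its own probe. The members other than TFF3, MUC2 and REG4 rest on 1 spot per array.

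The genes with the pair of differences from TCP nearest to each of the 3 members past 2-fold were taken by the smallest Euclidean distance on the log2 scale, over 2 comparisons and 13486 genes. Nearest to SPINK4 was ANXA13, an annexin of the intestinal brush border, at 3.15 on CS and 3.40 on CSHA, a distance of 1.82. ATF6B and CTSZ followed at distances of 2.11 and 2.40, so that no gene was close to SPINK4. Nearest to TFF3 were KLK12, a kallikrein-related protease, at a distance of 0.22, then FCGBP at 0.55 and IFITM1 at 0.58. Nearest to FCGBP were CTSZ, the lysosomal cathepsin Z, at 0.29, then TFF3 at 0.55 and KLK12 at 0.64. TFF3 and FCGBP were among the 3 nearest genes of each other. Both were entered because they were past 2-fold on both membranes, and both differences use the same TCP array. They ranked 14 and 18 on CS and 6 and 4 on CSHA, where few genes lie, so nothing is read from their nearness.

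The genes next to SPINK4 and FCGBP on their chromosomes were less than 2-fold different from TCP. On chromosome 9, B4GALT1 and BAG1 flank SPINK4, with log2 differences of -0.29 and 0.40 on CS and of -0.15 and 0.45 on CSHA. On chromosome 19, FBL and PSMC4 flank FCGBP, at 0.10 and -0.10 on CS and at 0.16 and -0.57 on CSHA. ZNF546, which lies beyond PSMC4, was not well above background on either membrane, with differences of -1.23 or lower on CS and -0.81 or lower on CSHA.

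Of 9 other regulators of goblet cells, 8 were measured on every array and ATOH1, the factor that commits cells to the secretory lineage, was not well above background on any, with signals of 6.62, 6.57 and 5.99. On CS 7 of the 8 were above TCP and 1 below, and on CSHA 5 were above and 3 below, with medians of 0.27 and 0.43. Of all genes, 56.7% were above TCP on CS and 61.6% on CSHA. GFI1, counted as below on CSHA, was level with TCP there, at -0.0001. FOXA2, a forkhead factor of the intestinal epithelium, read 1044 on TCP, 1808 on CS and 2846 on CSHA. It was the only one of these regulators past 2-fold, at 2.86-fold on CSHA, and was 1.45-fold higher on CS. KLF4, a zinc finger factor needed for goblet cells in the colon, read 149, 351 and 192, which is a log2 difference of 0.98 on CS and 0.43 on CSHA. FOXA3 stood at -0.20 and -0.64. ATOH1 and SPDEF, which act in 1 pathway, were thus not measured and lower, respectively.

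Of 13 other goblet cell products, 10 were measured, and ZG16, ITLN1 and HEPACAM2 were not well above background on any array. On CS 7 of the 10 were above TCP, beside 56.7% of all genes, with a median of 0.15. On CSHA 8 were, beside 61.6% of all genes, with a median of 0.27. RETNLB, the goblet cell hormone resistin-like molecule beta, read 66.7 on TCP, 167 on CS and 143 on CSHA. It was the only one past 2-fold, at 2.09-fold and 2.25-fold. REP15, a Rab15 effector, was the only one 2-fold different between the membranes, with a log2 difference of -1.40 for CSHA against CS.

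Of 12 paralogues of the members, 8 were not well above background on any array, REG1A, REG3A, CLCA2 and CLCA4 among them. The 4 with a value, SPINK1, SPINK5, SPINK7 and AGR3, were all above TCP on both membranes, AGR3 by bounds that could only come out above it. Of all genes, 56.7% were above TCP on CS and 61.6% on CSHA. SPINK1, the trypsin inhibitor of pancreas and gut, read 10400 on TCP, 29620 on CS and 21620 on CSHA, or 2.39-fold and 2.18-fold higher. For SPINK1 and AGR3, unlike SPINK4, the signal on CSHA was no higher than on CS, with log2 differences between the membranes of -0.13 and -0.09.

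Other mucins had fewer genes with a value. Of the 11 with a probe, 6 were well above background on some array, 5 of which were above TCP on each membrane, beside 56.7% of all genes on CS and 61.6% on CSHA. MUC1, a transmembrane mucin, had log2 differences of 0.57 on CS and 1.21 on CSHA. MUC17, also of the cell membrane, read 104 on TCP by its brightest probe and was not well above background on either membrane. Its difference by that probe was thus -2.55 or lower on CS and -2.12 or lower on CSHA. Another MUC17 probe read 6.11, 10.45 and 19.2 and was not well above background on any array, TCP included. The gel-forming MUC6, which lies near MUC2 on chromosome 11, was at 0.12 and 0.37, and MUC5B was not well above background.

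Enzymes of mucin O-glycosylation had a value for 18 of 20 genes. On CS 14 were above TCP and on CSHA 13, beside 56.7% and 61.6% of all genes, with medians of 0.30 and 0.23. Of the 18, 2 had bounds, GCNT1 and ST6GALNAC2. They were not well above background on TCP and could only come out above it. No enzyme measured on both arrays was past 2-fold on CS. The bounds of GCNT1 and ST6GALNAC2 there, at least 0.33 and at least 0.71, do not show whether these were past it. On CSHA, ST6GALNAC1, the enzyme that adds sialic acid to the Tn antigen of mucins, was 2.73-fold higher, with signals of 308, 640 and 803 over the substrates, and FUT3, a Lewis fucosyltransferase, was 2.00-fold higher. GALNT2, which starts O-glycan chains, was lower on CSHA at 0.492 of the TCP level. Of 12 genes of protein folding in the endoplasmic reticulum, none was 2-fold different, and the medians were 0.15 and 0.30. They ran from PDIA6, at -0.39 on CS and -0.90 on CSHA, to SEC61B at 0.25 on CS and ERN2, the stress sensor of mucus-secreting cells, at 0.71 on CSHA. Of 9 genes of granule traffic, none was 2-fold different either, with medians of 0.03 and 0.08. The lowest on CS was STXBP2 at -0.23, and on CSHA they ran from SYTL2 at -0.76 to RAB27B at 0.73.

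**Figure D4:**
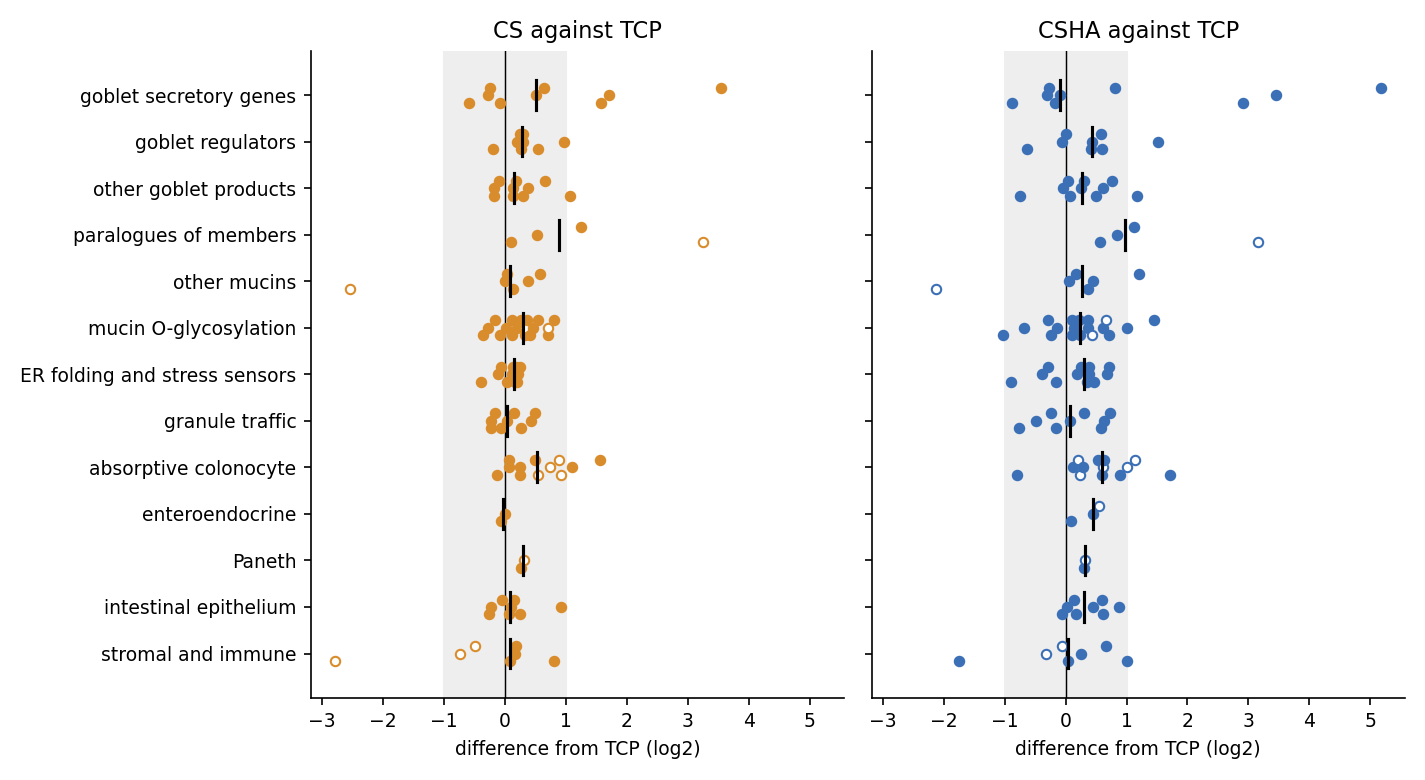
Log2 difference from TCP of each gene with a value in the goblet cell secretory genes and in 12 other lists, for CS (left) and CSHA (right). Open points are bounds, black ticks are list medians and the grey band spans less than 2-fold. The goblet cell secretory genes range from -0.88 to 5.17 on CSHA, while no gene of granule traffic leaves the band.

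Markers of other cells were read from the same arrays. Of 20 absorptive colonocyte genes, 12 had a value on CS and 13 on CSHA, of which 11 and 12 were above TCP, beside 56.7% and 61.6% of all genes, with medians of 0.52 and 0.60. The values include 4 bounds on CS and 5 on CSHA. These are for genes not well above background on TCP, which could only come out above it, so the counts and medians rest partly on them. Of the genes with a value, 2 on CS and 3 on CSHA were past 2-fold, and SLC51B was at -0.80 on CSHA. CEACAM7, an adhesion molecule of mature colonocytes, was 2.15-fold and 3.27-fold higher, and GUCA2A, which codes for guanylin, was 2.95-fold higher on CS. FABP1 and SLC51A, not well above background on TCP, were at least 2.01-fold and 2.20-fold higher on CSHA. The summed signal of the 20 genes, each divided by the 75th percentile of its array, came to 80.3 on TCP, 82.6 on CS and 108.5 on CSHA, while for the 10 goblet cell secretory genes it was 36.3, 53.6 and 74.8. Bright probes carry these sums. Without CEACAM1 and KRT20 the colonocyte sum was 9.91, 13.05 and 16.4, and without AGR2 the goblet sum was 5.99, 10.45 and 21.4. The colonocyte markers SLC26A3, CA4, ALPI, SI and TMIGD1 were not well above background on any array. Between the membranes, 11 of the 15 colonocyte genes with a value were higher on CSHA than on CS and 4 were lower, with a median of 0.35. Of all genes, 58.5% were higher on CSHA than on CS. CA1 and ANPEP, well above background on CSHA but not on CS, could only come out higher. GUCA2B and MS4A12, where this was the other way round, could only come out lower. SPINK4, TFF3 and FCGBP were also higher on CSHA. GUCA2A and SLC51B were among the lower colonocyte genes, at log2 differences of -1.04 and -1.30. The part of absorptive cells in the result was not tested.

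Of 12 enteroendocrine markers with a probe, 8, CHGA and NEUROD1 among them, were not well above background on any array by any probe. PAX6 was well above background on CS alone, by a probe other than its brightest. None was 2-fold different from TCP by its brightest probe. Of 5 Paneth cell markers with a probe, MMP7 and ITLN2 were measured, at log2 differences of 0.27 and at least 0.31 on CS, and the defensins DEFA5 and DEFA6 were not. All 8 markers of intestinal epithelium, EPCAM, CDH1 and KRT19 among them, were well above background on every array, and none was 2-fold different. CDX2, the master factor of the intestine, was the highest of these on both membranes, at 0.92 and 0.88. The epithelial markers of the labelled cell type were thus present on each array. Of 12 stromal and immune markers, 7 were well above background on some array. CD79A read 1460, 1987 and 2201, and VIM and SPARC were well above background on TCP alone. PTPRC, at 39.2, 52.5 and 38.6, and PECAM1, at 41.9, 53.2 and 47.6, were so on every array by their brightest probe only. Another PTPRC probe, at 65.1 on TCP, was well above background there and on neither membrane. COL1A1, COL1A2, COL3A1, DCN and LUM were not well above background on any array. CD3E, which read 122 on TCP, had log2 differences of -2.79 or lower on CS and -1.76 on CSHA, and CD68, a lysosomal protein, was 2.01-fold higher on CSHA.

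**Figure D5:**
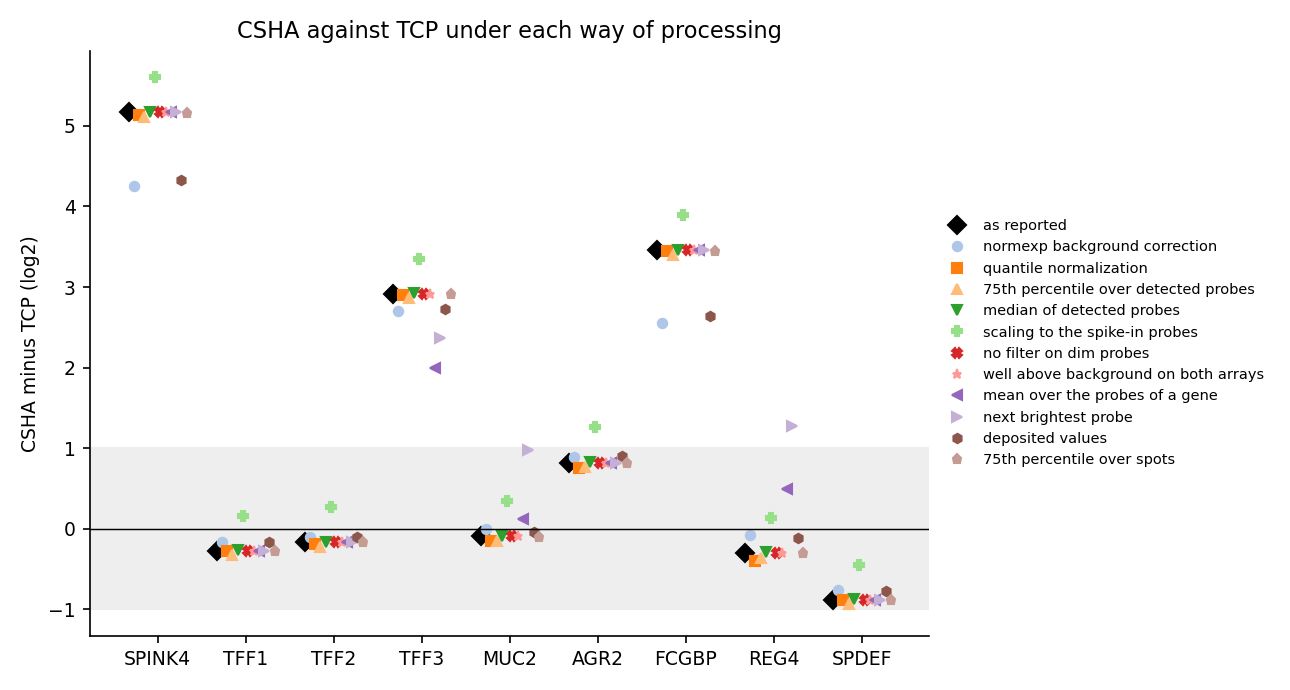
Log2 difference of CSHA from TCP for the 9 measured members under the setting reported here (black diamond) and 11 alternatives, which change the background correction, the scaling, the filter or the probe. SPINK4, TFF3 and FCGBP stay outside the grey band of less than 2-fold under each, AGR2 leaves it under the spike-in scaling, and REG4 and MUC2 move with the choice of probe. The value of REG4 by its next brightest probe is a lower bound.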

How the data were processed

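The authors deposited, for each of 3 Agilent arrays, the spot intensity as Feature Extraction 10.7.3.1 gave it, and a table of log2 values. Differences between arrays in that table equal those of the log2 median spot signal plus a constant, so its scale and direction are known and no background was subtracted. Its centring per spot is not stated, and the medians of its columns were 0.013 for TCP, -0.129 for CS and 0.043 for CSHA. The submitters' processing notes name limma. Labels and methods differ on the RNA and labelling kits, and the methods name another version of the scanner software. No column was left unused (0).

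Processed signals were set to at least 1, taken to log2 and centred on the 75th percentile of the probes of an array, controls excluded. In the methods, this was done to the raw signal. Flagged outlier spots were dropped, and spots of a probe averaged. RefSeq genes of GRCh38.p14 gave symbols and gene order, with 29989 probes matched and 20579 not. The brightest probe stood for a gene, and 6216 genes had several. A gene was compared where either array of the pair showed it well above background. Where 1 was dim, the difference is a bound, set by the dim probe or, if higher, by the weakest signal that counted as well above background there (24.1, 21.1 and 22.6 on TCP, CS and CSHA). With 1 array per group, genes were counted by size, at least 2-fold, and the number of arrays limits the precision. Probes well above background made up 48.6%, 51.1% and 49.9%, and no spot was saturated (0).

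The members and all lists were chosen with earlier results of these data known. Named are the members, genes of each list past 2-fold from TCP or else its extremes, and the 3 nearest genes, and not every gene so selected is reported here. Genes named as not measured or for a bound under 2-fold, GFI1, KLF4, FOXA3, REP15, MUC3A, MUC6, CDX2 and the neighbours were chosen after their values were seen. The calculation was tested on simulated data. Python 3.11.15 with numpy 2.4.6, pandas 2.3.3 and matplotlib 3.10.9 was used, and limma 3.58.1 in R 4.3.3 for the alternatives.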

Additional observations from a re-analysis of the deposited data

How the results depend on the processing

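Besides the thresholds of 1.5-fold and 3-fold, 11 alternatives were computed, of which the 75th percentile over spots was chosen after seeing the data. Of 297 values of single members, 253 stayed within the scanner's error of the reported value and 44 moved by more, and 13 of the 297 changed sign. Part of the 253 was fixed beforehand. A change of the filter could not move a member well above background on every array, and a change of the probe could move only TFF3, MUC2 and REG4. The number of members at least 2-fold higher lay between 2 and 4 under each alternative. FCGBP fell under 2-fold on CS with normexp and with the deposited values, and TFF3 did so between the membranes with the mean over probes and with the next brightest probe.

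The median of the members for CS against TCP was 0.21 with no filter on dim probes, which adds CLCA1, and 0.29 with the next brightest probe, in place of 0.51. For CSHA against TCP, in place of -0.10, it was 0.34 with the spike-in scaling, 0.49 with the mean over probes and 0.98 with the next brightest probe. For CSHA against CS, in place of 0.15, it was 0.53 with the spike-in scaling and 0.72 with the next brightest probe. Sign changes came from the spike-in scaling for TFF1 (0.16), TFF2 (0.27), MUC2 (0.34) and REG4 (0.13) on CSHA against TCP, and for TFF1 (0.19) and SPDEF (0.077) on CSHA against CS. They came from the choice of probe for MUC2 on CS (0.24, next brightest) and on CSHA against TCP (0.11 with the mean, 0.98 with the next brightest), and for REG4 on CSHA against TCP (0.49 with the mean, 1.28 with the next brightest) and against CS (0.029 and 0.99). No replicate could be left out, and no paired analysis was possible because each group has 1 array. Near the detection limit, as for SPINK4 and FCGBP on TCP, a difference depends most on how background was subtracted.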
